A study of Mus musculus with 10 samples.

Results

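The 5 control pools labelled mouse prospermatogonia were examined here, which are 5 of the 10 samples of the series, chosen because their titles place them in the control group. Prospermatogonia are the germ cells of the fetal testis. The cells came from testes of C3H/HeN embryos near the end of gestation whose mothers drank tap water, and the 5 pools of the arsenic group were not used. A check of the label against promoters of known state, given below, went against it in part, so the samples are called the control pools. Each pool joined the testes of many embryos, and the cells were enriched on a magnetic column with an antibody against the surface protein Thy1, so a pool averages over animals and holds whatever cells the antibody retained. DNA methylation was measured by reduced representation bisulfite sequencing (RRBS), which cuts DNA at CCGG and reads the short CpG-rich fragments. Of 1349101 entries, 1328689 CpG cytosines lay on chromosomes 1 to 19 and were described, and the 20412 others were left out.

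DNA methylation is the addition of a methyl group to the cytosine of a CpG. In male germ cells of the mouse embryo nearly all of it is erased early, and in prospermatogonia it is laid down again by DNMT3A, DNMT3C and DNMT3L before birth, on repeats and between genes as well as at the paternal imprints. Promoters rich in CpGs mostly stay free of it in all cell types.

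Every pool held 43664162 to 59814234 cytosine calls, with a median coverage of 25 to 35 reads per CpG. The measured cytosines were 3.26% of the 40767246 CpG cytosines in the reference, and 62.2% of them lay in predicted MspI fragments of the size range RRBS favours. The sampling was uneven: it took 10.1% of promoter cytosines, 2.86% of intronic ones and 2.13% of those in repeats. All levels below describe this sample of the genome, and the mean over CpGs is not a genome mean.

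A few short stretches show the range of states that the pools held. They are printed 5′ to 3′ on the plus strand of GRCm38, with each CpG in capitals, and were chosen after their levels were seen. The intergenic stretch and the repeat near Prdm13 had almost no methylation, the other repeat was mostly methylated at a lower CpG content, and the last 2 are the 200 b before the starts of a germline gene (Hormad1, a meiotic chromosome axis protein) and of a gene used in every cell (Ldha, a subunit of lactate dehydrogenase).
Intergenic, chr19:44684086-44684362: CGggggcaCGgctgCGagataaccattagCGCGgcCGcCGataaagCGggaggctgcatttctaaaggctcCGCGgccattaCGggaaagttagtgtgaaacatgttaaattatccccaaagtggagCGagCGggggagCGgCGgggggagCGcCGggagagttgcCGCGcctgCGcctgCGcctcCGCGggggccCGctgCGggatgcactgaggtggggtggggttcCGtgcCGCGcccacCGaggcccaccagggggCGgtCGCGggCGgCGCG
Repeat, chr1:31730647-31730915: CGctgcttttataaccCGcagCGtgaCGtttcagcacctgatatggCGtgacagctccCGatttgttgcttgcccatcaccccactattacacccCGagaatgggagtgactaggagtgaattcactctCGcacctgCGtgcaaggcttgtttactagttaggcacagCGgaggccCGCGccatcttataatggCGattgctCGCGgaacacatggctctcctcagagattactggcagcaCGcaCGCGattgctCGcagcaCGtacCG
Repeat in a coding exon of Prdm13, chr4:21678827-21678878: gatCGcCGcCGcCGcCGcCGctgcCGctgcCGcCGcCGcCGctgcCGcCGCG
Hormad1 upstream, chr3:95559477-95559676: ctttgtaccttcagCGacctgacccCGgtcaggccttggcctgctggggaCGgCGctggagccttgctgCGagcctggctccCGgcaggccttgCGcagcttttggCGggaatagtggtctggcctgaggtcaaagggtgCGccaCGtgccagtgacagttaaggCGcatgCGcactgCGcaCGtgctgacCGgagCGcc
Ldha upstream, chr7:46845639-46845838: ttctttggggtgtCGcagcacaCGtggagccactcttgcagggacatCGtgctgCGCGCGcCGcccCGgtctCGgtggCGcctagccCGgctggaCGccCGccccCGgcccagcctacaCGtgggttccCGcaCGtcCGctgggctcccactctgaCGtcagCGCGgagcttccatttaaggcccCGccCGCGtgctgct

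The intergenic stretch held 35 CpGs in 277 b, and its 63 measured cytosines had a mean level of 1.16% ± 0.514 (SD, n = 5). The stretch on chromosome 1 held 21 CpGs in 269 b, all of it soft-masked as repeat in the reference, and its 35 measured cytosines were at 87.4% ± 2.95. The stretch in Prdm13, a developmental transcription factor, is a run of short CG-rich units with 14 CpGs in 52 b, and its level was 0.0831% ± 0.115. Upstream of Hormad1 the 5 pools were at 63.7, 49.1, 62.9, 75.4 and 52.7%. Upstream of Ldha they were at 0, 0.602, 0.966, 0.870 and 0%. The Hormad1 stretch held 16 CpGs and the Ldha stretch 24, so both are CpG-rich, and their values did not overlap in any pool.

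The mean level over all CpGs was 46.6, 45.3, 45.4, 45.4 and 46.2% in pools 1 to 5. These differed by little more than a point, and pools 1 and 5 were the higher ones. The levels had a low mode and a broad upper mode. Averaged over the pools, 34.4% of the CpGs were below 10%, the range from 10 to 40% held few of them, and the shares then climbed from 4.41% of CpGs at 40 to 50% to 14.8% at 80 to 90%. In single pools, 37.0 to 37.4% of the CpGs were below 20% and 25.2 to 27.9% were above 80%. The range from 20 to 80% held 35.1 to 37.6%. No methylated read was seen in any pool at 232276 CpGs (17.5%). In contrast, 1789 CpGs (0.135%) had only methylated reads in every pool.

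**Figure D1:**
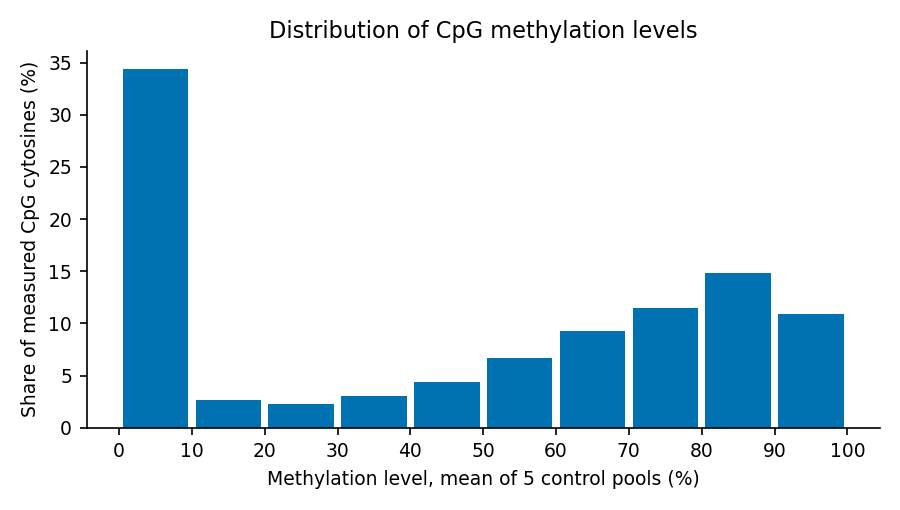
Share of the measured CpG cytosines (y axis, %) in each 10-point range of methylation level (x axis, mean of the 5 control pools, %). The lowest range holds 34.4% of the CpGs, and a broad second mode reaches its highest bar, 14.8%, at 80 to 90%.

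A CpG kept its state across pools to different degrees. It was below 20% in all 5 pools at 33.4% of CpGs, from 20 to 80% in all at 17.7% and above 80% in all at 11.5%, and it changed between these ranges at 37.4%. For the spread, CpGs were grouped by their mean over the 5 pools, so those that changed range are included. The SD between pools averaged 2.65 points in the lowest range, 12.2 points in the middle range and 7.54 points in the highest. Drawing reads at the observed depth would give 1.86, 8.56 and 5.53 points. The median ratio of the variances was 1.74, 1.94 and 1.73, so the spread was above that of independent reads in all 3 ranges. The part of overlapping mates and PCR copies in this was not tested. Pearson's r between pairs of pools over the CpGs was 0.928 to 0.943, a description over sites that share the same libraries.

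Whether the level depends on where a CpG lies was addressed by annotation class. CpGs in promoters (1 kb before to 100 b after a start site) had a mean level of 9.54% ± 0.0786 (SD, n = 5), and those in 5′UTRs outside promoters 5.73% ± 0.0550. Exons were at 44.9% ± 0.412, regions around transcript ends at 49.6% ± 0.647, introns at 52.3% ± 0.720, intergenic CpGs at 55.5% ± 0.873, 3′UTRs at 57.8% ± 0.740 and soft-masked repeats at 71.8% ± 1.01. The promoter level was 46.0 points below the intergenic level (SD of the difference 0.824), and the repeat level was 16.2 points above it (SD 0.491), each in 5 of 5 pools. Exons were 7.36 points below introns (SD 0.484), and 5′UTRs 52.1 points below 3′UTRs (SD 0.764). Some of these sizes depended on which CpGs entered. Exon minus intron was -4.48 points at a coverage of at least 20, -0.552 at 30 and -4.49 with promoters drawn from 2 kb upstream to 500 b downstream, and repeat minus intergenic was 6.05 points with each 1 kb window counted once. Every one of the 14 contrasts tested here had the same sign in all 5 pools, with p = 0.0625 and an adjusted p of 0.0625 (exact sign-flip permutation test over the pools, two-sided, Benjamini-Hochberg over the 14). With 5 pools this is the smallest p that the 32 sign assignments allow, so the design cannot reach 0.05, and each difference is set beside its SD instead.

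**Figure D2:**
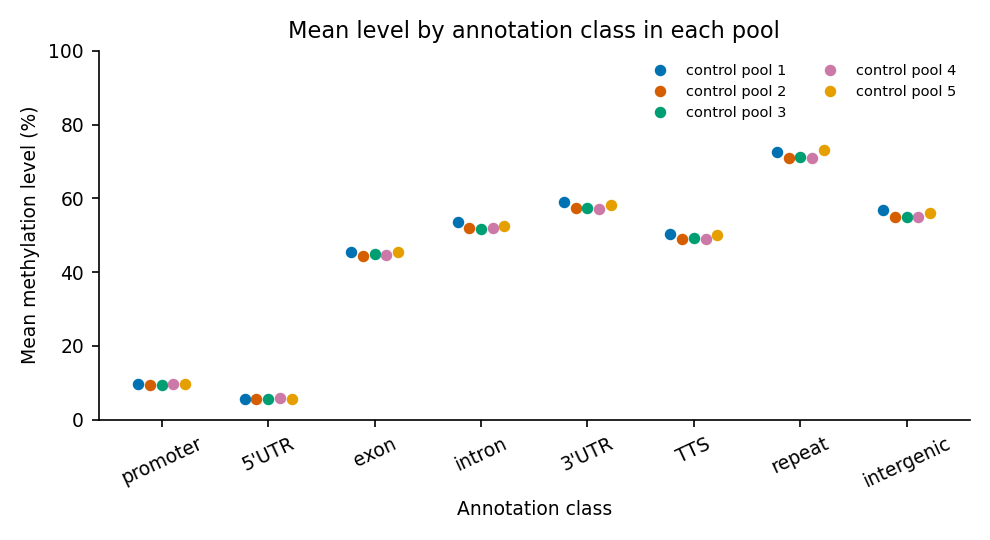
Mean methylation level (y axis, %) of the CpGs in 8 annotation classes (x axis), with 1 point for each of the 5 control pools. Promoters and 5′UTRs lie below 10%, repeats above 70%, and the spread of the pools is small beside the distance between these classes.

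Position within genes separated the levels further. First exons outside promoters and UTRs were at 10.4% ± 0.0665 and later exons at 58.8% ± 0.554. First introns were at 36.9% ± 0.541 and later introns at 67.8% ± 0.903. The distances between them, 48.4 points (SD 0.534) for exons and 31.0 points (SD 0.373) for introns, were far larger than the spread of the pools. With each 1 kb window counted once, first minus later introns was -19.4 points. Among introns the level followed the distance to the nearest start site. It was 7.01% ± 0.0747 within 1 kb, 49.3% ± 0.687 from 1 to 5 kb, 66.03% ± 0.944 from 5 to 10 kb and 69.4% ± 0.944 from 10 to 50 kb. Intergenic CpGs showed a shallower gradient, with 46.4% ± 0.742 from 1 to 5 kb and 61.6% ± 1.09 beyond 100 kb. Intergenic CpGs within 10 kb of a start were 12.0 points (SD 0.337) below those beyond 100 kb, and the difference was -5.07 points with each 1 kb window counted once.

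Along genes of at least 10 kb whose promoter was below 10%, the first of 10 equal parts of the gene was at 16.8% ± 0.204. The second was already at 61.1% ± 0.828, the eighth at 70.1% ± 0.811 and the last at 68.6% ± 0.753. Of 8083 genes with at least 20 gene-body CpG cytosines, the median body level was 54.0%, with 1536 genes below 20% and 775 above 80%. The lowest bodies were those of Cox5b, a subunit of cytochrome c oxidase, at 0.0690%, Nrarp, a regulator of Notch signalling, at 0.0960% and Ptpn12, a tyrosine phosphatase, at 0.185%. The highest were those of Cbfb, the partner of the RUNX factors, at 95.3% ± 1.32, Dap3, a mitochondrial ribosomal protein, at 94.4% ± 1.53 and Fancd2, a DNA repair protein, at 93.6% ± 0.762. These genes were picked for their levels and rest on 20 to 31 CpG cytosines each.

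Levels also differed with the number of CpGs nearby. CpGs with 1 to 4 reference CpGs in the 500 b around them were at 73.6% ± 1.199. The level was 69.9% ± 1.03 at 5 to 9, 57.6% ± 0.766 at 10 to 19, 29.3% ± 0.320 at 20 to 29, 7.84% ± 0.102 at 30 to 39 and 1.82% ± 0.0828 at 40 or more. Dense CpGs (at least 20) were 57.8 points (SD 1.07) below sparse ones (under 10). Dense CpGs outside promoters were at 20.2% ± 0.212 and those inside at 2.66% ± 0.0805. Both lay far below the sparse CpGs at 70.5% ± 1.05. The outside group joins soft-masked CpGs, at 68.9% ± 0.884, and unmasked ones, at 12.3% ± 0.124. The promoter class ends shortly after the start, so the outside group includes CpG-rich DNA just downstream of starts. Introns within 1 kb of a start were at 7.01% ± 0.0747. The part of such DNA in the low level outside promoters was not tested. Intergenic CpGs, which lie outside promoters and genes, were at 72.4% ± 1.30 with 1 to 4 CpGs nearby. They were at 20.2% ± 0.298 with 20 to 29 and at 2.08% ± 0.142 with 40 or more. The 17.6 points between dense CpGs outside and inside promoters were 8.80 with density counted in 1000 b, 28.7 in 200 b and 28.2 with the wider promoter.

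Repeats departed from this relation. At 20 to 29 CpGs per 500 b, CpGs in repeats were at 75.5% ± 0.996, while unmasked gene-body CpGs were at 26.9% ± 0.252, intergenic ones at 20.2% ± 0.298 and promoter ones at 6.37% ± 0.0966. At 30 to 39 CpGs, repeats were still at 71.9% ± 0.859 over 5347 cytosines and gene bodies at 7.27% ± 0.150. Only the 862 repeat cytosines with 40 or more CpGs around them were low, at 4.71% ± 0.176, and the soft-masked stretch in the Prdm13 exon printed above, which counts as exon here, has over 40 CpGs around it too. Among dense CpGs outside promoters the difference between masked and unmasked was 56.7 points (SD 0.804), whereas among sparse ones it was 1.76 points (SD 0.541). With each 1 kb window counted once the dense difference was 33.1 points. The sparse one was 1.12 points at a coverage of at least 20, 0.550 at 30 and 3.66 weighted by coverage. The repeat families were not separated here.

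**Figure D3:**
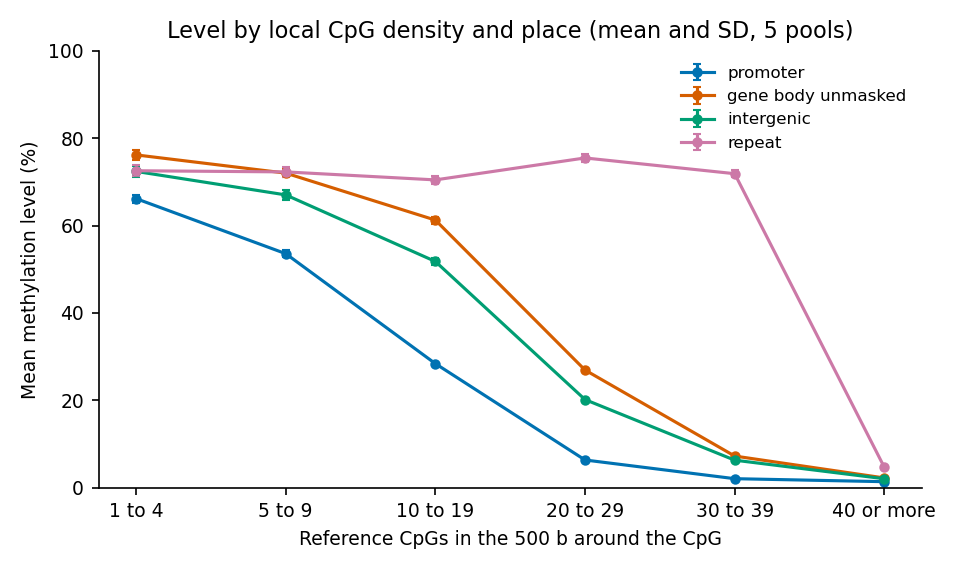
Mean methylation level (y axis, %) by the number of reference CpGs in the 500 b around a CpG (x axis) for promoters, unmasked gene bodies, intergenic DNA and repeats, with the SD over the 5 control pools as error bars. Repeats stay above 70% up to 30 to 39 CpGs while the other places are below 10% there, and all 4 are below 5% at 40 or more.

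Gene bodies and intergenic DNA of equal CpG density were also set side by side, a pairing chosen after the levels were seen and given without a test. Gene bodies were higher by 3.78 points (SD 0.252) at 1 to 4 CpGs, by 4.99 points (SD 0.256) at 5 to 9, by 9.47 points (SD 0.180) at 10 to 19 and by 6.76 points (SD 0.0770) at 20 to 29, in 5 of 5 pools each time. At 40 or more the difference was 0.185 points (SD 0.163), with 4 of 5 pools on that side.

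Within repeats, the level was lowest in soft-masked stretches under 200 b (67.1% ± 0.925) and highest in those of 6000 b or more (78.2% ± 1.00). The lengths between did not form a gradient, with 74.5% ± 1.06 at 200 to 500 b, 72.1% ± 1.202 at 500 to 1000 b, 73.5% ± 1.25 at 1000 to 3000 b and 74.8% ± 1.16 at 3000 to 6000 b. Repeats inside genes were 1.56 points (SD 0.294) above repeats between genes. This sign depended on the order of annotation: with repeats assigned before all genic classes the difference, genes minus between genes, was -3.01 points, and with the wider promoter it was 2.81. Runs of at least 10 masked CpG cytosines numbered 3595, of which 1463 (40.7%) were above 80% and 123 (3.42%) below 10%. The 3 low runs with the most CpGs lay at the promoter of Ank, a pyrophosphate transporter (1.70% ± 0.543, 40 cytosines), in Prdm13 and at chr5:52115675-52115859 (0.789% ± 0.721, 27 cytosines).

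Intergenic DNA over 10 kb from any start held 3070 runs of at least 10 unmasked CpG cytosines. Of these, 516 (16.8%) were below 10% and 439 (14.3%) above 80%. Among the low runs with the most CpG cytosines, the one at chr15:85625627-85625952 (73 cytosines) was at 4.83% in pool 1 and 0.910 to 2.07% in the other pools. Another, with 62 cytosines of the intergenic class at 1.18% ± 0.523, is the stretch on chromosome 19 printed above, where 1 more measured cytosine falls in another class.

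Promoters were then classed by sequence into CpG-rich (HCP), intermediate (ICP) and CpG-poor (LCP). Of 20807 protein-coding genes, 9974 had at least 3 measured promoter CpG cytosines, and 8247 of these (82.7%) were below 10% while 123 (1.23%) were above 80%. HCP promoters (5284) had a mean of 2.81% ± 0.0555, with 94.3% of them below 10% and 1 above 80%. ICP promoters (3576) had a mean of 7.93% ± 0.0674, with 82.2% below 10%. LCP promoters (1114) had a mean of 37.8% ± 0.558. They were spread over the scale, with 29.2% below 10%, 37.7% between 30 and 70% and 8.98% above 80%. The minimum of 3 cytosines left 1114 LCP genes where 8463 are annotated, and 5284 HCP genes where 5769 are annotated. Measured genes were classed by the start with the most measured CpG cytosines, and annotated genes by the most upstream start. The pairs of counts are therefore not shares of the same genes.

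For levels around starts, every protein-coding gene was placed and classed by its most upstream start, without the minimum of 3 cytosines. The gene sets therefore differ from those of the promoter classes above. Around HCP starts the level was 1.39% ± 0.0669 in the 500 b before the start and 1.26% ± 0.0698 in the 500 b after it. It was 14.3% ± 0.142 from 1000 to 2000 b downstream and 43.5% ± 0.568 from 2000 to 5000 b. ICP starts had a narrower low zone on the upstream side, with 17.995% ± 0.279 from 1000 to 500 b before the start where HCP had 4.76% ± 0.0737. LCP starts had 54.8% ± 0.878 at that distance and 14.5% ± 0.155 in the 500 b after the start.

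**Figure D4:**
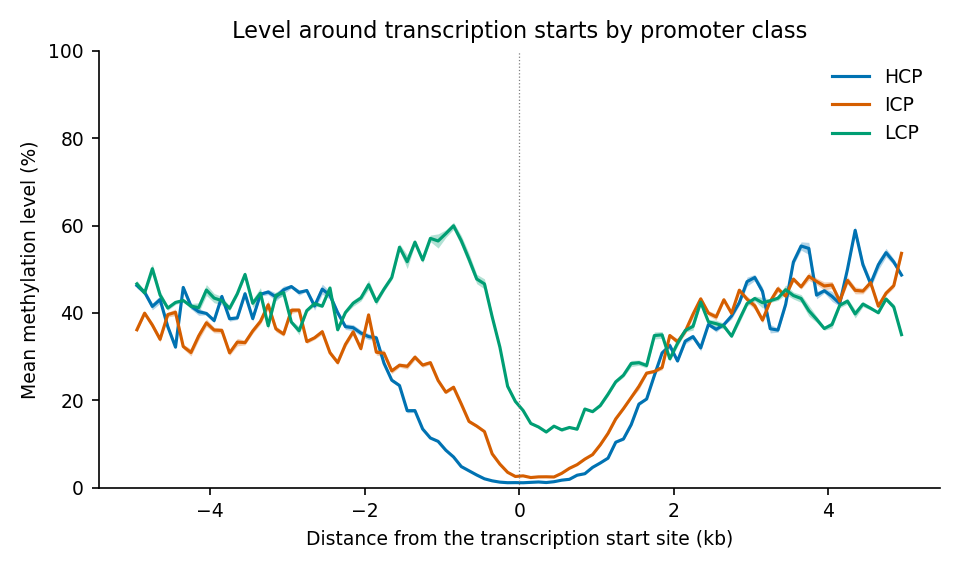
Mean methylation level (y axis, %) in 100 b bins by distance from the start site (x axis, kb, negative values upstream) for HCP, ICP and LCP genes, with the SD over the 5 control pools as a band that is mostly narrower than the line. Genes are classed by their most upstream start. HCP is lowest over the start, ICP is higher upstream, and LCP peaks upstream of the start and stays above the others over it.

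The HCP promoters with the highest levels were those of Det1, a ubiquitin ligase component, Hist1h2aa, a histone H2A gene, and Ptprf, a receptor tyrosine phosphatase. Det1 was at 87.2, 86.9, 84.1, 85.5 and 85.8% over 5 cytosines. Hist1h2aa was at 69.7 to 82.7% over 26 cytosines and Ptprf at 64.4 to 79.8% over 9. At the other end, the LCP promoters of Arl5c and Cxcl5, a chemokine, had no methylated read among 1509 and 905 reads, which allows levels of up to 0.199 and 0.331% (counting error only). Thsd7b was at 0.264% ± 0.286. All 6 were picked for these values.

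The label of the samples was checked against promoters with a known state in germ cells. As background, promoters of many genes used only in the germ line are free of methylation in fetal germ cells and methylated in body cells, and maternal imprints are erased in fetal male germ cells while paternal imprints are gained. Of 28 germline genes listed, 17 had 3 or more measured cytosines, and their mean was 54.3% ± 2.30, with 51.5, 52.3, 56.8, 56.1 and 54.6% in pools 1 to 5. All but 1 of the 17 lay between 10 and 80%. Ddx4, an RNA helicase of germ cells, was at 67.6% ± 4.19, Dazl, an RNA-binding protein, at 38.4% ± 3.00, Mael, a piRNA factor, at 66.9% ± 8.99 and Sycp1, of the synaptonemal complex, at 45.1% ± 8.10. The exception was Smc1b, a meiotic cohesin, at 2.48% ± 1.40. The list was 49.4 points (SD 2.30) above the mean of HCP and ICP promoters, 4.88% ± 0.0326.

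The 15 measured windows around starts at maternal imprints had a mean of 34.4% ± 1.97, and 13 of them lay between 10 and 80%. Snrpn was at 33.0% ± 6.67, Airn at 38.98% ± 7.62, Peg10 at 39.3% ± 7.90 and Kcnq1ot1 at 21.1% ± 11.3. Windows around several starts span over 2 kb at Grb10 (2.30%), Inpp5f (6.63%), Mest (50.5%) and Nespas (33.7%), and the other 11 windows had a mean of 38.5% ± 2.09. Fkbp6, at 67.2%, is in both lists, and without it, Grb10 and Inpp5f the mean was 36.7% ± 2.34. Both selections were made after the values were seen. The paternal imprints were at 76.1% ± 5.10 upstream of H19, 69.9% ± 9.93 upstream of Meg3 and 47.0% ± 5.23 at Rasgrf1, over 3 to 8 cytosines each.

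Among these values, those of the germline promoters and maternal windows go against the label as a description of a pure population. Middle levels were seen at 16 of 17 germline promoters and 13 of 15 maternal windows, where that background gives unmethylated ones. The paternal imprints, where it gives methylation, were high upstream of H19 and Meg3, at 76.1 and 69.9%. Rasgrf1 was lower, at 47.0%. In pooled DNA, a middle level in each cell and a mixture of methylated and unmethylated cells cannot be told apart, and the makeup of the pools was not tested. The paper measured marker RNA and found prospermatogonial markers higher in the Thy1 fraction than in a fraction from postnatal testes. It describes the cells as predominantly enriched for prospermatogonia, without a claim of purity. The list of prospermatogonia and male germ line markers, 10 of 19 measured, had a mean of 25.1% ± 0.581. Of the 10 promoters, 5 were below 10%, against 82.7% of all promoters, among them Gfra1 at 1.04% and Zbtb16 at 1.24%. The other 5 were Ddx4 at 67.6%, Piwil2 at 61.7%, Dnmt3l at 55.6%, Dazl at 38.4% and Thy1, the antigen of the enrichment, at 22.1% ± 3.59. Ddx4, Dazl and Piwil2 are also in the germline list, so the lists are not separate. Of the marker promoters of other testis cells with enough cytosines, 3 of 6 Sertoli, 3 of 3 Leydig and interstitial and 2 of 2 peritubular, endothelial and blood genes were below 10%, where the share over all promoters is 82.7%. Of 10 Sertoli genes, 6 were measured, with a mean of 11.5 to 14.4% in the single pools. Fshr, the FSH receptor, was at 54.99% ± 4.35, while Sox9 and Wt1 were at 1.25% ± 0.922 and 1.30% ± 0.860. The 3 Leydig and interstitial genes with enough cytosines had a mean of 4.44% ± 2.47, and the 2 peritubular, endothelial and blood genes 7.24% ± 3.85.

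The other lists can be read against the 82.7% of all promoters and 94.3% of HCP promoters below 10%. The 13 housekeeping promoters were at 1.85% ± 0.274, with Ppia at 0.310% and Actb highest at 11.8%. The 17 developmental regulators were at 3.25% ± 0.272, and 16 of them were below 10%, among them Pax6 at 2.01%, Sox2 at 0.685% and Hand2 with no methylated read. Of 18 listed genes of the DNA methylation machinery, 12 had at least 3 measured cytosines, and 11 of these were below 10%. The other, Dnmt3l, the cofactor of the DNMT3 enzymes, was at 55.6% ± 9.08 over 4 cytosines of an LCP promoter. Among those with fewer cytosines, Tet1 was at 78.8% ± 6.14 and Zfp57 at 21.9% ± 8.03 over 2 each. Dnmt1 was at 2.70% ± 4.45 over 1. The 6 measured genes of other organs, of which 3 are ICP and 3 LCP, had a mean of 54.9% ± 0.503 and none below 10%, with the lowest level, 11.2%, at Mbp, a myelin protein.

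**Figure D5:**
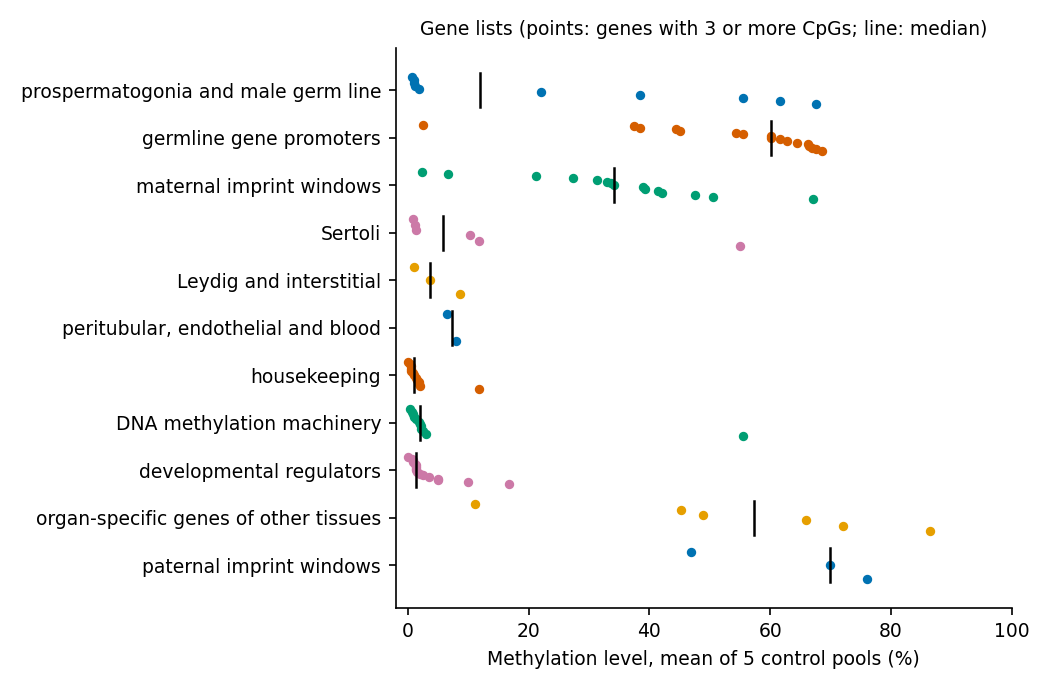
Methylation level (x axis, mean of the 5 control pools, %) of each gene promoter or imprint window with at least 3 measured CpG cytosines, by gene list (y axis), with the list median as a black line. The germline genes and maternal imprint windows lie mostly in the middle of the scale, where the housekeeping genes and developmental regulators have almost no points.

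The bases beside the CpG went with the level among sparse CpGs and in repeats. Among sparse unmasked CpGs outside promoters and CCGG sites, CpGs followed by C were at 73.8% ± 0.865, and those followed by A, G or T at 68.4% ± 1.07, 68.2% ± 1.07 and 67.8% ± 1.00. The order was the same in every pool for C against the other bases. In repeats, CpGs followed by C were at 74.1% ± 0.794 and those followed by T at 66.8% ± 1.11. Over the 4 bases, GCGC was highest and TCGA lowest among the sparse unmasked CpGs, at 74.9% ± 0.895 and 65.97% ± 1.217. CpGs in CCGG, the cut site of the enzyme, were at 73.0% ± 1.21 and other sparse CpGs at 69.3% ± 0.998. Dense CpGs outside promoters, a set that includes soft-masked ones, had another order. They were at 17.8 to 19.8% in the contexts that end in C and at 28.5% ± 0.358 at ACGG. The share of repeats in each context was not examined. End repair during library making can alter calls next to cut sites. Its part in the difference between CCGG and other CpGs was not tested.

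Neighbouring CpGs had similar levels over about a kilobase. Across CpG pairs on the plus strand, as a description over sites of the same libraries, Pearson's r of the mean levels was 0.963 at 2 to 10 b (171273 pairs), 0.820 at 501 to 1000 b (103630 pairs), 0.578 at 1001 to 2000 b and 0.236 at 2001 to 5000 b. At 90001 to 100000 b it was 0.0402. The pairs at short range often share reads. Both strands were measured at 312039 CpGs, where the levels differed by 6.07 points on average, and 22 of these had no methylated read on 1 strand with the other above 80%.

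At the scale of 1 Mb, using only sparse unmasked CpGs, 2191 windows had a median level of 70.01%, with 61.0 and 76.1% at the 10th and 90th percentiles. The windows kept their order between pools (r 0.931 to 0.935), and the SD between pools averaged 1.79 points. The fifth of windows with the lowest GC content had a mean of 63.7% and the fifth with the highest 71.2%. The lowest window was chr13:21000001-22000000, at 36.6% ± 0.970 over 75 CpGs. Chromosome means of all CpGs ran from 41.2% on chromosome 11 to 48.4% on chromosome 16. Restricted to sparse unmasked CpGs, the chromosomes lay between 69.7 and 71.6%.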

How the data were processed

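Levels were computed from the counts that the authors deposited, which give the reads, methylated reads and unmethylated reads of each CpG cytosine in each sample. Trimming was by Trim Galore 0.6.5, mapping to mm10 by Bismark 0.22.3 and merging by methylKit 1.22.0 (names and versions from the submitters' processing notes). A cytosine had to reach 10 reads in each of the 10 samples, with strands kept apart, so the arsenic pools also decided which CpGs are present. The treatment of duplicates is not given in the sources used here. Coverage was even at 56.8 to 58.3% of CpGs, and whether both mates of a pair entered the counts was not tested.

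The level was methylated reads over all reads, averaged over CpGs without weights, with the pool as replicate. Samples were grouped by title. At 10 reads with 5 methylated, the 95% Wilson interval is 23.7 to 76.3%, which covers counting error only. A CpG in several classes took the first of promoter, transcript end (100 b before to 1 kb after), UTR (5′ before 3′) and exon. The remaining ones were repeats where soft-masked, then introns, then intergenic, from the GENCODE M21 basic set and the RefSeq copy of GRCm38. HCP promoters hold a 500 b window with observed over expected CpG above 0.75 and GC above 55%, and LCP promoters hold none above 0.48. Contrasts within pools were tested by exact sign-flip permutation and checked on simulated reads, where all 4 simulated contrasts were recovered. The named genes are those of the lists, plus the 3 highest HCP and 3 lowest LCP promoters (at least 5 CpG cytosines), the 3 lowest and highest gene bodies, and the 3 low runs with the most CpG cytosines of each kind. A few named items are not reported here. Members and lists were chosen with earlier results of these data known. Alternatives covered coverage minimums, weighting, strands, thinning, windows and single pools. Python 3.11.15, numpy 2.4.6, pandas 2.3.3, scipy 1.17.1 and matplotlib 3.10.9 were used.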

Additional observations from a re-analysis of the deposited data

Results flagged for a closer look

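A pool was taken to stand apart when its gap to the nearest of the others, divided by the whole range of the 5, was above Dixon's critical value at 95%. Of 181 sets of 5 values, 11 did so, where chance gives about 9.05 (1 in 20). For introns 50 to 100 kb from a start the quotient was 0.718, with pool 1 at 70.6% and the others at 68.2 to 68.9%. Among gene bodies near 0 it was 1 for Cox5b (pool 4 at 0.345%, the others at 0), 0.810 for Nrarp (pool 5 at 0.403%) and 1 for Ptpn12 (pool 1 at 0.926%, the others at 0). Among promoters near 0 it was 0.906 for Tfap2c (pool 2 at 2.60%), 0.923 for Polr2a (pool 4 at 5.23%), 0.765 for Tet3 (pool 5 at 2.72%) and 0.762 for Pax2 (pool 5 at 2.21%).

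At middle levels the quotient was 0.721 for the maternal imprint Mcts2 (pool 3 at 56.2%, the others at 43.8 to 47.2%), 0.715 for Fkbp6 (pool 2 at 54.9%, the others at 68.3 to 73.7%) and 0.890 for Krt5 (pool 2 at 66.7%, the others at 42.8 to 45.5%, over 3 cytosines). No single pool accounted for the 11.

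The 158 mitochondrial CpGs, which no comparison used, had a mean level of 1.23% ± 0.0946 (SD, n = 5), from 1.14 to 1.39% in single pools, and 1.81 to 2.06% when reads were summed over the CpGs, above the limit that a count of 0 would allow at a mean coverage of 1012 to 1366 reads per CpG. Whether these calls are unconverted cytosines was not tested.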

How the results depend on the processing

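Over 14 contrasts and 4 described values, 259 alternatives were computed, and 210 of them were on contrasts. All kept their sign except repeats in genes against repeats between genes, which became -3.01 points when repeats were assigned before genic classes. Contrasts that moved by over 1.5 times are given beside their results. The described values also moved, and the cause was not tested. The mean level (45.8%) was 49.5% at a coverage of at least 20, 52.6% at 30, 47.6% weighted by coverage and 61.4% with each 1 kb window counted once. The share of CpGs below 20% (37.2%) was 32.3, 27.9, 34.7 and 16.8% in the same order, 36.6% with strands merged and 36.1% after thinning to 10 reads. The share above 80% (26.3%) was 28.5 and 30.1% at the higher coverages, 36.7% by 1 kb window and 22.4% after thinning. The share of promoters below 10% (82.5% as the mean of single pools) was 83.0 and 82.9% at the higher coverages, 82.8% with strands merged, 82.1% after thinning and 75.9% for promoters from 2 kb upstream to 500 b downstream. Without 1 pool the smallest p is 0.125, so those fits say nothing about the threshold. Both reduced maternal imprint lists were chosen after seeing the data. No paired analysis was possible because only 1 group of samples was used, so no samples of 2 groups could be paired by number. The contrasts compare places within the same pool, which the sign-flip test takes into account.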
